A study of Caenorhabditis elegans with 33 samples.

Results

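Loss of mxl-2 was compared in diet-restricted Caenorhabditis elegans that ate bacteria carrying an empty RNAi vector. The comparison uses 5 of the 33 libraries of the series. The control group is eat-2(ad465) with 2 libraries, and the other group is labelled eat-2(ad465);mxl-2(tm1516) with 3. Members were taken from the sample names of the count table, and no measured value chose them. All 5 libraries come from whole hermaphrodites at adult day 2, raised at 16 °C to the last larval stage and then kept at 20 °C. Every plate held HT115(DE3) E. coli with the vector L4440, written EV here, and received 5-fluorodeoxyuridine, which blocks progeny, at that stage. Each library is polyadenylated RNA from a separately synchronised population. Both groups carry the eat-2 allele, so the groups differ by tm1516 alone as labelled. Each genotype is 1 strain, so other differences between the strains cannot be told apart from tm1516. Library numbers are 49 to 57 for the double mutant, against 1 to 27 for all remaining strains, so strain and any difference between these number ranges cannot be told apart.

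MXL-2 is a helix-loop-helix leucine zipper protein of the Max family. It pairs with MML-1, the worm relative of the mammalian Mondo factors, and the pair binds E-box sites and activates genes of metabolism and of the responses that prolong life in several long-lived strains. The eat-2 gene encodes an acetylcholine receptor subunit of the pharyngeal muscle. Its mutants pump slowly, take in less food and live longer, which makes them a standard genetic model of dietary restriction. In C. elegans the FOXA factor PHA-4, which builds the pharynx, is also required for the long life of eat-2 mutants, and the FOXO factor DAF-16 acts downstream of insulin signalling.

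The targeted transcript was examined first. mxl-2 (chromosome III, 186949 to 188131, WBcel235, protein coding) had 2067 and 1049 counts in the eat-2 libraries and 95, 128 and 94 counts in the libraries labelled double mutant. The groups did not overlap. As CPM, counts scaled to library size by the trimmed-mean method, the means were 53.96 ± 40.03 (SD, n = 2) and 3.19 ± 0.429 (SD, n = 3). The log2 fold change was -4.08 ± 0.41 (SE, adjusted p 1.84e-06 in edgeR), and the gene was called in each of the 5 fits that left out 1 of these libraries. The eat-2 transcript had 1 and 3 counts in eat-2 and 1, 2 and 3 counts in the other group. That is at the floor of 3 counts per library, so no change is read from it.

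The pha-4 transcript ran against the food labels. It had 353 and 430 counts in eat-2 EV and 136, 115 and 127 counts in the EV libraries with the double-mutant label, on a vector that should not target it. In CPM these groups were at 12.28 ± 2.50 (SD, n = 2) and 3.83 ± 0.496 (SD, n = 3), which is a log2 difference of -1.68 ± 0.40 (SE, adjusted p 0.00902 in edgeR). Where the label reads double mutant on pha-4 RNAi the gene was at 10.4 ± 2.54 CPM (SD, n = 3), and on daf-16 RNAi at 5.84 ± 1.66 CPM (SD, n = 3). In eat-2 on pha-4 RNAi it was at 9.34 ± 5.99 CPM (SD, n = 2), with 151 and 405 counts, so 1 of these libraries lay within the range of eat-2 EV. Every direction below is therefore one between libraries labelled EV. With the 3 libraries that carry the pha-4 RNAi label put in place of the EV ones, 1362 genes were called (7.85%), 383 higher (2.21%) and 979 lower (5.64%), of which 943 were shared in direction with the comparison as labelled and 2 were opposite. There mxl-2 stayed low (log2 fold change -3.63, adjusted p 7.54e-06 in edgeR) and pha-4 was not called (-0.23, adjusted p 0.72 in edgeR).

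The other genes of the Myc-family network did not pass the test. Of its 7 members, mxl-2 was the single call. Its partner gene mml-1 had 37.6 and 14.9 CPM in eat-2 and 36.9, 26.7 and 34.9 CPM in the libraries labelled double mutant. These ranges overlap, and the log2 fold change was 0.32 ± 0.30 (SE, adjusted p 0.514 in edgeR). The genes mdl-1 (a Mad-like repressor), mxl-1 (its Max partner), mxl-3, hlh-30 (the TFEB homologue) and sbp-1 (the SREBP homologue) had log2 fold changes between -0.27 in mxl-1 and 0.45 in mxl-3. The DAF-16 transcript was at 116 and 44.9 CPM in eat-2 and at 107, 79.5 and 98.9 CPM in the other group, and daf-16 was not called (0.25 ± 0.31, SE, adjusted p 0.649 in edgeR).

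Depth was similar and the replicates were not. The libraries held 26880437 to 29374355 counts, but 1267 genes had no count in eat-2 replicate 1 against 194 to 304 in the other 4 libraries. Pearson's r of log2 CPM across genes was 0.902 between the eat-2 replicates and 0.991 to 0.994 between the libraries labelled double mutant. The mean log2 CPM of the 25 oocyte and eggshell genes was 9.31 in eat-2 replicate 1 and 6.77 in replicate 2. For the 6 vitellogenins it was 12.39 and 7.87, and for 11 intestine markers 6.89 and 4.97. In each of these lists the 3 libraries labelled double mutant lay between the eat-2 replicates. Markers of pharynx, body muscle, neurons, intestine and germline were detected in all 5.

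**Figure D1:**
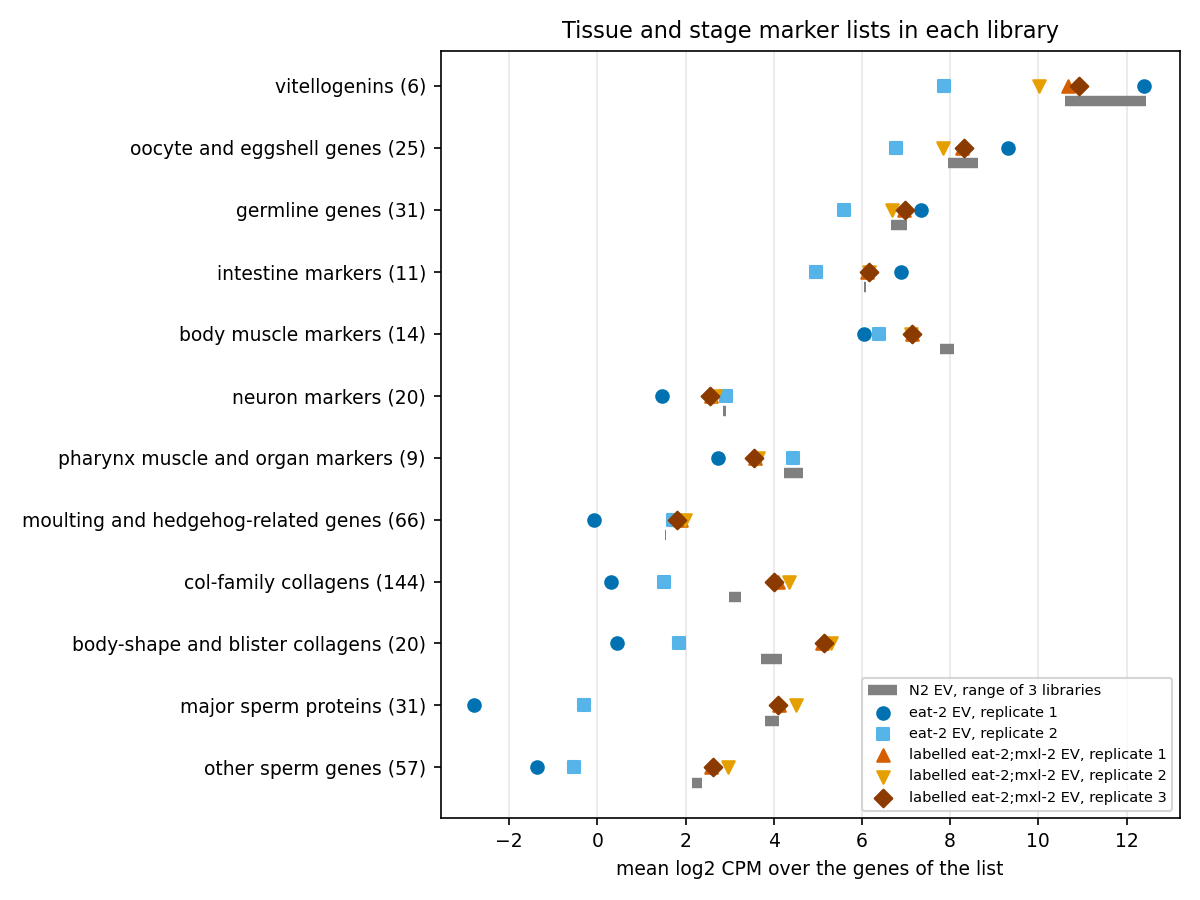
Mean log2 CPM of tissue and stage marker lists (number of genes in parentheses) in each of the 5 libraries, with the range of 3 N2 EV libraries as a grey bar. The eat-2 replicates lie to either side of the labelled double-mutant libraries for yolk, oocyte, germline, intestine and pharynx genes, and both lie far below them for collagens and sperm genes.

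Of 17354 genes tested, 3198 (18.4%) were called at an edgeR adjusted p under 0.05, with 1656 higher (9.54%) and 1542 lower (8.89%) in the libraries labelled double mutant. At an unadjusted p under 0.05 there were 5593 genes. The groups did not overlap in 3073 of the called genes (96.1%), against 45.3% of all genes tested. The rises were wide and the falls narrow: the lowest library of the higher group exceeded the highest of the lower group by at least 1 log2 unit in 1480 higher genes and 407 lower ones. Leaving out 1 library changed the number of calls most for eat-2 replicate 2. Fewer calls were not smaller changes throughout. The median log2 fold change of major sperm proteins went from 5.52 to 8.38 without that replicate, and that of small heat shock proteins from -0.92 to -0.06. Without it 323 genes were called (98 higher), and without replicate 1 there were 3744 (1315 higher). Scaling moved the split too. On log2(TPM + 0.5) with limma, where the median gene shifted by 0.22 instead of -0.08, 2438 of 2977 calls were higher, against 1737 of 3120 with RLE size factors.

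**Figure D2:**
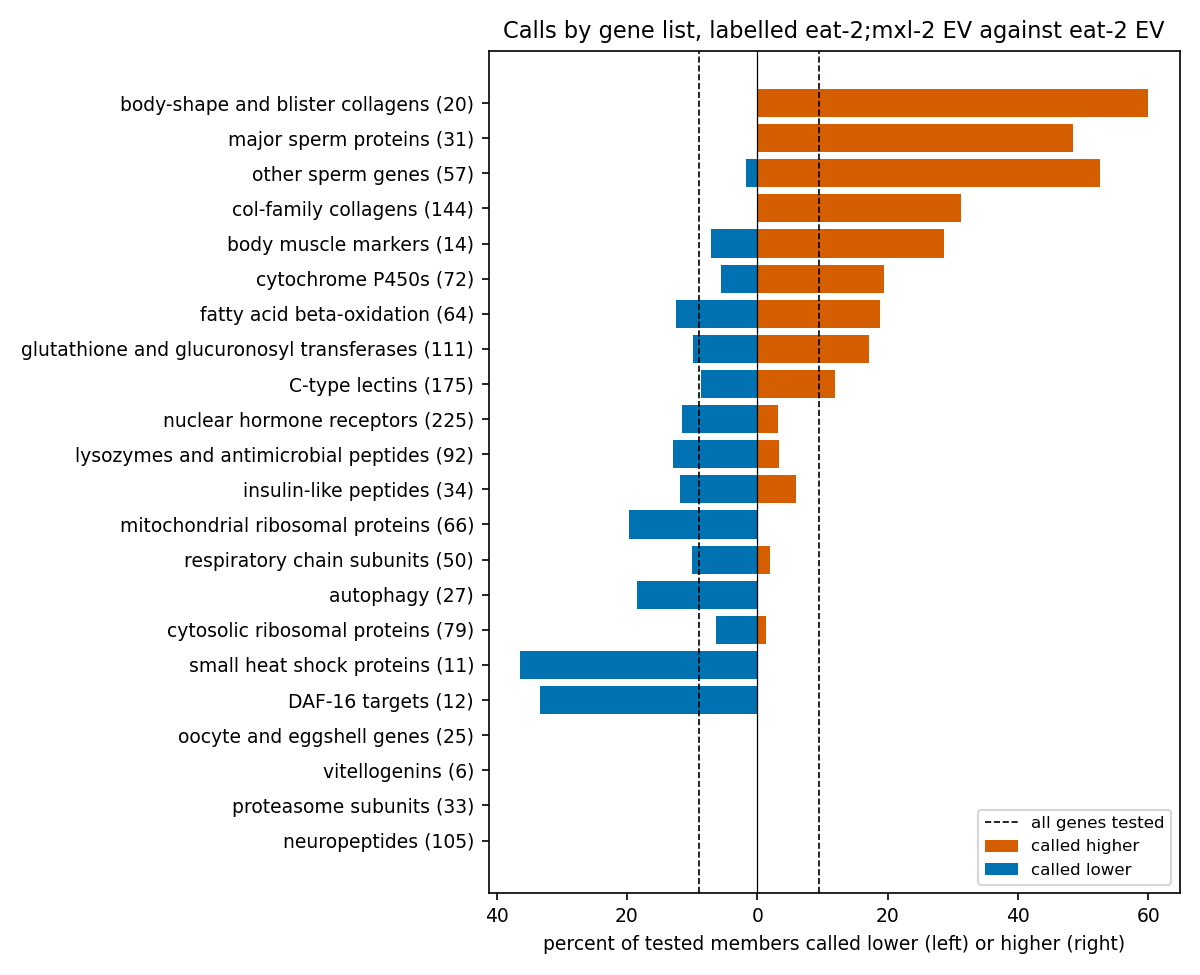
Percent of the tested members of each gene list (number in parentheses) called higher (right) or lower (left) in the libraries labelled double mutant, with dashed lines at the 9.54% and 8.89% of all genes tested. Collagen and sperm lists reach furthest to the right, small heat shock proteins and DAF-16 targets furthest to the left, and vitellogenins, oocyte genes, proteasome subunits and neuropeptides have no called member.

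Cuticle collagens rose by wide margins. Worms make a new collagen cuticle at each moult, and the sqt, dpy, rol and bli genes were found through mutants with altered body shape or blistered cuticles. Of 20 body-shape and blister collagens, 12 were called higher (60%, against 9.54% of all genes) and 0 lower. Their median log2 fold change was 5.76 beside -0.08 over all genes. Of 144 col-family collagens tested, 45 were called higher (31.2%) and 0 lower, with a median of 2.76. sqt-1 (chromosome II, 11336693 to 11337837) was at 0.159 and 0.171 CPM in eat-2 and at 59.2, 69.3 and 53.7 CPM in the libraries labelled double mutant. sqt-1 was named for this wide gap between groups, and its log2 fold change was 8.48 ± 1.96 (SE, adjusted p 0.00695 in edgeR). dpy-5 was at 0.239 and 0.367 CPM against 67.1, 69.3 and 64.5 CPM (7.73 ± 2.14, SE, adjusted p 0.0176 in edgeR). Other wide rises were in col-49 (7.96), col-175 (7.86), col-73 (7.36), col-138 (7.35), col-17 (7.40) and rol-1 (7.62), all log2 fold changes with edgeR adjusted p-values from 0.0140 in col-17 to 0.0319 in rol-1.

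These collagen calls differ in how much they rest on single libraries. The mean log2 CPM of the col family was 0.30 and 1.503 in eat-2, 4.102, 4.34 and 4.01 in the libraries labelled double mutant, and 2.99 to 3.25 in the 3 wild-type N2 EV libraries. For the body-shape collagens it was 0.45 and 1.85, then 5.08, 5.29 and 5.14, with 3.70 to 4.18 in N2. Both mutant groups thus lie outside the N2 range, on opposite sides. In mxl-2 EV the body-shape mean ran from 1.12 to 3.43, below N2. Without eat-2 replicate 2 the calls fell to 3 of the col family and 1 of the body-shape list, while the medians were 4.63 and 5.48. Without replicate 1 there were 18 and 4 higher, with 1 col gene lower, at medians of 2.77 and 5.96. With the major sperm protein level of each library as a covariate, 11 col genes were higher and 6 lower, and 2 body-shape collagens were higher and 2 lower.

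The collagen that held in each fit without 1 library and had the widest gap was col-176 (chromosome X, 10077597 to 10078728). It was at 0.358 and 0.245 CPM in eat-2 and at 56.6, 95.7 and 73.0 CPM in the libraries labelled double mutant. N2 EV lay between, at 4.90 to 5.94 CPM. The log2 fold change was 7.96 ± 1.13 (SE, adjusted p 0.000115 in edgeR). Among 66 moulting and hedgehog-related genes, which act in cuticle assembly, 6 were called higher (9.09%) and 2 lower (3.03%). These shares are not above the 9.54% and 8.89% of all genes. The median of this list was 0.53, and 0.06 without eat-2 replicate 1. With the sperm covariate 3 were higher and 12 lower. The ground-like gene grl-22 rose from 1.07 and 0.660 CPM to 13.8, 15.8 and 12.5 CPM (4.02 ± 0.62, SE, adjusted p 0.000265 in edgeR), although exons of other genes cover 13.2% of its exon length. grd-3 rose by 3.61 ± 1.02 and wrt-5 fell by 0.78 ± 0.23 (log2, SE, adjusted p 0.0191 and 0.0256 in edgeR). Of 33 astacin proteases 3 were called higher (9.09%, near the 9.54% of all genes) and 0 lower. The risers included nas-27 (5.04) and nas-22 (1.89), on the log2 scale.

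Sperm transcripts rose together with the collagens. Major sperm proteins form the cytoskeleton of the crawling nematode sperm and also signal to oocytes. All 31 of their genes had higher values in each library labelled double mutant than in either eat-2 library, against 24.6% of all genes tested. Of the 31, 15 were called higher (48.4%, against 9.54% of all genes), with a median of 5.52. The mean log2 CPM of the list was -2.79 and -0.30 in eat-2 and 4.12, 4.499 and 4.09 in the libraries labelled double mutant, beside 3.79 to 4.12 in N2 EV. The eat-2 libraries thus lie below both of these groups, but the mxl-2 EV libraries ran from -1.26 to 5.44, so low sperm transcripts were not limited to eat-2. msp-55 was at 0.119 and 0.660 CPM against 34.2, 39.7 and 34.2 CPM (6.43 ± 2.03, SE, adjusted p 0.0310 in edgeR), and N2 EV held 29.7 to 33.3 CPM. These genes are near-identical copies, so reads may be split between them and the 31 are not independent. In each of the fits without 1 eat-2 library, 0 of the 31 were called, with medians of 4.73 without replicate 1 and 8.38 without replicate 2. DESeq2 called 31 and limma on TPM 29.

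Of 57 other sperm genes tested, 30 were called higher (52.6%, against 9.54% of all genes) and 1 lower, with a median of 4.25. alg-3, an Argonaute protein of spermatogenesis, was at 0.0796 and 0.0978 CPM in eat-2 and at 17.1, 17.1 and 16.5 CPM in the libraries labelled double mutant (7.48 ± 2.15, SE, adjusted p 0.0206 in edgeR). spch-3, a sperm chromatin protein, rose by 7.39 ± 2.06 and gsp-3, a sperm phosphatase, by 6.69 ± 2.00 (log2, SE, adjusted p 0.0183 and 0.0244 in edgeR). The single fall was in ssp-37, by 1.33 ± 0.34 (log2, SE, adjusted p 0.0120 in edgeR). Without eat-2 replicate 1, 15 of the list were called higher (median 3.71), and without replicate 2, 1 (5.61). In whole animals, fewer sperm and less sperm RNA per cell cannot be told apart. Of the 3198 calls, 1329 were also made, in the same direction, with the major sperm protein level as a covariate.

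Oocyte, yolk and early germline genes gave few calls, and their direction turned with the eat-2 library. Of 25 oocyte and eggshell genes and 6 vitellogenins, 0 were called by edgeR or DESeq2, with medians of -0.47 and -0.83. In the fit without eat-2 replicate 1 there were 2 oocyte calls, both higher, and the medians were 1.55 and 2.16. The yolk gene vit-2 was at 20512 and 3539 CPM in eat-2 and at 7256, 4416 and 8457 CPM in the libraries labelled double mutant, all within the eat-2 range (log2 fold change -0.84 ± 0.68, SE, adjusted p 0.437 in edgeR). The eggshell gene perm-4 had a log2 fold change of -1.09 ± 0.55 (SE, adjusted p 0.171 in edgeR). Of 31 germline genes 0 rose and 2 fell, syp-2 (-0.68 ± 0.20) and syp-3 (-0.65 ± 0.20), log2 with SE, which encode synaptonemal complex proteins (adjusted p 0.0212 and 0.0268 in edgeR). Without eat-2 replicate 1, 10 germline genes were called higher and 2 lower, and the median went from 0.12 to 1.47. Of 39 histone genes 1 fell, his-37 (-1.56 ± 0.41, log2, SE, adjusted p 0.0133 in edgeR).

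Body muscle genes were higher in part. Of 14 markers 4 were called higher (28.6%, against 9.54% of all genes) and 1 lower (7.14%, against 8.89%). The median log2 fold change was 1.04. The troponin T gene mup-2 was at 64.2 and 43.6 CPM in eat-2 and at 157, 186 and 186 CPM in the libraries labelled double mutant. Its groups did not overlap, and the change was 1.71 ± 0.43 (log2, SE, adjusted p 0.0110 in edgeR). A further troponin T gene, tnt-2, rose by 1.58 ± 0.55 and hlh-1, the MyoD homologue, fell by 1.00 ± 0.35 (log2, SE, adjusted p 0.0448 and 0.0471 in edgeR). Without eat-2 replicate 2, 0 of the 14 were called (median 1.13), and without replicate 1, 1 was called (0.84). Of 9 pharynx markers pha-4 alone was called. The pharynx list, at a mean log2 CPM of 2.73 and 4.44 in eat-2, spans the 3.56 to 3.64 of the libraries labelled double mutant. Of 20 neuron markers, the synaptic priming gene unc-13 rose (1.33 ± 0.39) and unc-119 fell (-0.99 ± 0.30), log2 with SE. The male-fate gene mab-3, 1 of 7 male markers tested, rose from 0.398 and 0.147 CPM to 2.41, 2.87 and 1.99 CPM (3.18 ± 0.78, SE, adjusted p 0.0102 in edgeR).

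Cytochrome P450 genes, whose enzymes oxidise foreign compounds and lipids, rose more often than they fell. Of 72 tested, 14 were called higher (19.4%, against 9.54% of all genes) and 4 lower (5.56%, against 8.89%). Of these, 4 and 1 held in each fit without 1 library (5.56% and 1.39%, against 0.392% and 0.882% of all genes). When eat-2 replicate 1 was left out, 9 were higher and 8 lower. The cyp-35 family, known for its response to drugs and pollutants, included wide rises. Its A members are close copies, so reads may be split between them. cyp-35A3 (chromosome V, 4022609 to 4024482) was at 0.716 and 0.220 CPM in eat-2 and at 47.8, 50.2 and 43.7 CPM in the libraries labelled double mutant. The 3 libraries are close to each other and far above the other 2 (6.69 ± 1.15, SE, adjusted p 0.000734 in edgeR). cyp-35A1 had 0 and 1 counts in eat-2 and 192, 184 and 123 counts in the other group (adjusted p 0.000164 in edgeR). cyp-35A4 had 11 and 5 counts against 335, 278 and 213 (adjusted p 0.00725 in edgeR). cyp-35A5 and cyp-35C1 rose by 2.98 ± 0.60 and 2.46 ± 0.54 (log2, SE, adjusted p 0.00277 and 0.00489 in edgeR).

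The gene cyp-35A2, on chromosome V at 7362319 to 7364182 beside cyp-35A1 at 7359929 to 7361773, was not called. It had 659 and 717 counts in eat-2 and 888, 801 and 640 counts in the libraries labelled double mutant. Those ranges overlap, with a log2 fold change of 0.10 ± 0.62 (SE, adjusted p 0.944 in edgeR). In the same strain contrast on daf-16 RNAi and pha-4 RNAi, however, cyp-35A2 rose by 2.99 and 2.47 (log2, adjusted p 0.0220 and 0.0380 in edgeR). Also not called on EV were cyp-35B1 (0.99), cyp-35B2 (0.42), cyp-35B3 (-0.28) and cyp-35D1 (2.12), on the log2 scale. Per length, cyp-35A2 was at 14.03 and 11.7 TPM, transcript abundance scaled for length, in eat-2, and cyp-35A3 at 0.43 and 0.14 TPM. In the libraries labelled double mutant the order was the other way, with cyp-35A2 at 17.99, 15.4 and 13.8 TPM and cyp-35A3 at 35.4, 36.2 and 30.3 TPM. The gene cyp-13A1 moved down, from 2.67 and 9.76 CPM to 0.323, 0.455 and 0.299 CPM (-4.096 ± 0.68, SE, adjusted p 0.000564 in edgeR), while cyp-13A8 and cyp-13A12 rose by 6.21 ± 1.85 and 6.70 ± 1.97 (log2, SE, adjusted p 0.0245 and 0.0231 in edgeR).

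Conjugating enzymes moved in both directions. Of 111 glutathione and glucuronosyl transferases, 19 were called higher (17.1%, against 9.54% of all genes) and 11 lower (9.91%, against 8.89%), with a median of 0.45. In each fit without 1 library 2 and 5 of these held (1.8% and 4.5%, against 0.392% and 0.882% of all genes). With replicate 1 of eat-2 left out there were 10 higher and 15 lower. ugt-13 rose from 2.03 and 3.20 CPM to 28.2, 34.2 and 24.9 CPM (3.47 ± 0.55, SE, adjusted p 0.000428 in edgeR). ugt-18 fell from 16.7 and 44.9 CPM to 1.91, 1.76 and 1.70 CPM (-4.102 ± 0.65, SE, adjusted p 0.000392 in edgeR). The groups did not overlap in either of the 2 genes, but the naming rule favours such genes, so this is no separate result. The glutathione transferase gene gst-33 rose by 4.97 ± 1.62 (log2, SE, adjusted p 0.0362 in edgeR), with a wide spread of 19.2 to 44.2 CPM among the libraries labelled double mutant.

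Of 5 flavin monooxygenase genes, fmo-2 fell and fmo-3 rose. In C. elegans, fmo-2 is induced by dietary restriction and hypoxia and is required for part of the long life they bring. It was at 93.2 and 626 CPM in the eat-2 libraries and at 7.17, 7.45 and 5.28 CPM in the libraries labelled double mutant. The eat-2 values differ by several fold, yet both lie far above the other group (-5.76 ± 0.99, SE, adjusted p 0.000734 in edgeR). N2 EV held 231 to 277 CPM, between the eat-2 values. fmo-3 rose from 6.77 and 5.55 CPM to 37.6, 46.2 and 37.99 CPM (2.72 ± 0.45, SE, adjusted p 0.00058 in edgeR). Both calls held in each fit without 1 library. fmo-1, fmo-4 and fmo-5 were not called, with log2 fold changes of -1.19, 0.32 and 0.41.

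**Figure D3:**
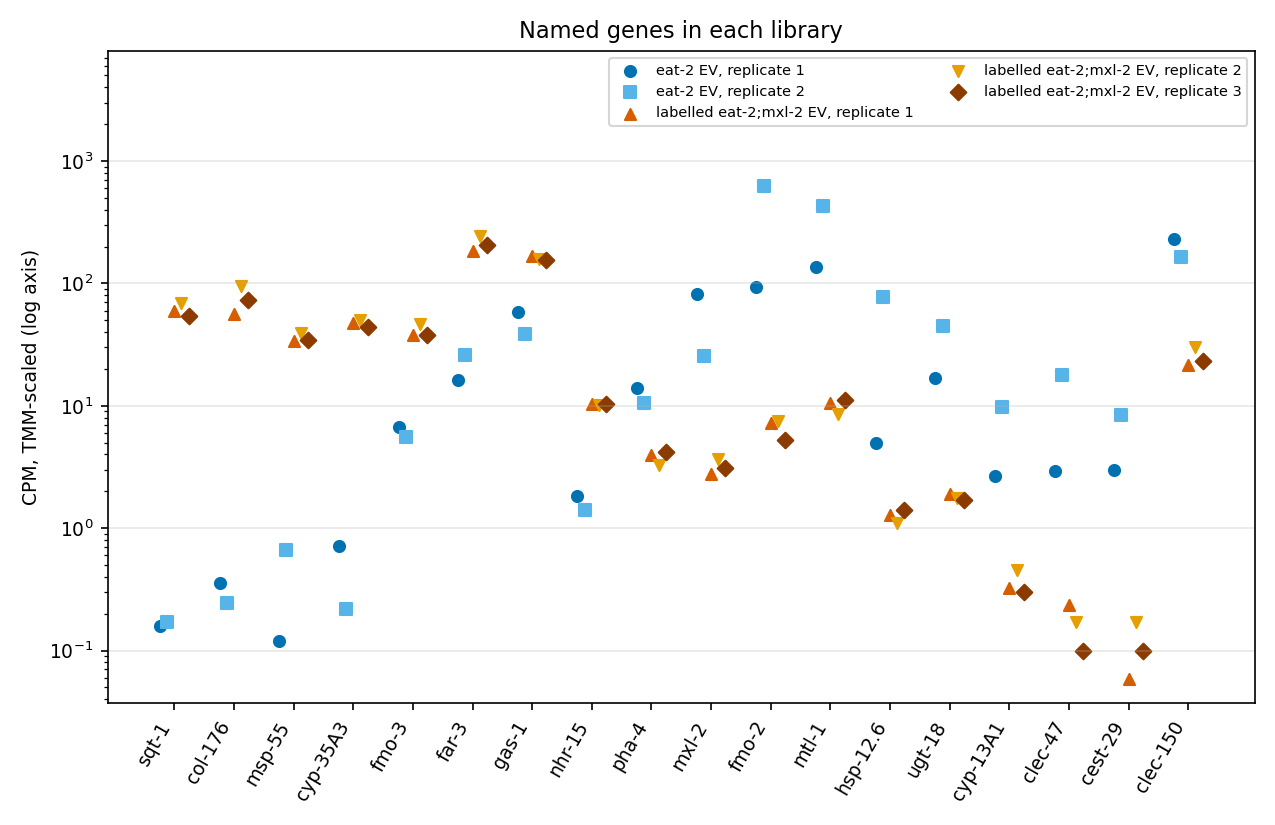
CPM of 18 named genes in each of the 5 libraries, on a log axis. In fmo-2 the eat-2 replicates are far apart, at 93.2 and 626 CPM, while the libraries labelled double mutant lie close together at 5.28 to 7.45 CPM, and hsp-12.6 and clec-47 show a like pattern.

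DAF-16 targets were lower or not called. Of 12 targets 4 fell (33.3%, against 8.89% of all genes) and 0 rose, with a median log2 fold change of -1.28. The metallothionein gene mtl-1 was at 137 and 427 CPM in eat-2 and at 10.5, 8.56 and 11.1 CPM in the libraries labelled double mutant, with N2 EV at 206 to 428 CPM. It fell by 4.81 ± 0.80 (log2, SE, adjusted p 0.000577 in edgeR), and it is the target called in each fit without 1 library. Its relative mtl-2, an intestinal metallothionein gene, was at 233 and 334 CPM against 41.2, 54.1 and 57.4 CPM (-2.48 ± 0.32, SE, adjusted p 5e-05 in edgeR). The other 3 fallen targets were hsp-12.6, hsp-12.3 and the linker histone gene hil-1 (-1.67). sod-3, a superoxide dismutase gene often used as a DAF-16 reporter, had a log2 fold change of 0.58 (adjusted p 0.640 in edgeR).

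Small heat shock proteins, which hold unfolded proteins in solution, overlap with that list through 2 genes. Of 11 tested, 4 fell (36.4%, against 8.89% of all genes) and 0 rose (median -0.92). hsp-12.6 was at 4.93 and 78.1 CPM in eat-2 and at 1.29, 1.11 and 1.396 CPM in the libraries labelled double mutant. Most of the difference lies in eat-2 replicate 2 (-5.03 ± 0.98, SE, adjusted p 0.00215 in edgeR). The same holds for hsp-12.3, at 11.6 and 144 CPM against 2.41, 3.39 and 2.56 CPM (-4.80 ± 0.95, SE, adjusted p 0.00237 in edgeR). hsp-12.1 and hsp-16.41 also fell, by 3.56 and 2.05 on the log2 scale. Without eat-2 replicate 2, 0 of the 11 were called, and with limma on TPM 1 rose and 2 fell. Of 52 other chaperone genes 3 fell and 0 rose (median -0.06), but without eat-2 replicate 1, 16 were called higher and 3 lower (0.79). dnj-13, an HSP40 gene, fell in each fit without 1 library: it went from 334 and 433 CPM to 184, 163 and 183 CPM (-1.12 ± 0.17, SE, adjusted p 0.000249 in edgeR).

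Genes of pathogen defence changed member by member. C-type lectins, a large family of secreted carbohydrate-binding domain proteins, gave 21 rises (12%) and 15 falls (8.57%) among 175 tested. These shares are near the 9.54% and 8.89% of all genes. The median log2 fold change of the lectins was 0.34, and 0.81 without eat-2 replicate 2. clec-47 was at 2.95 and 17.9 CPM in eat-2 and at 0.235, 0.171 and 0.0997 CPM in the libraries labelled double mutant (-5.91 ± 0.78, SE, adjusted p 7.32e-05 in edgeR). clec-222 fell by 4.02 ± 0.69 and clec-196 by 3.26 ± 1.11 (log2, SE, adjusted p 0.000734 and 0.0433 in edgeR). Among the rises, clec-73 (7.46 ± 1.88) and clec-123 (6.47 ± 1.81), log2 with SE, were nearly silent in eat-2, with 2 to 12 counts, whereas the libraries labelled double mutant held 406 to 783 counts of them. Of 92 lysozyme and antimicrobial peptide genes 3 rose (3.26%) and 12 fell (13%) with a median of -0.33, which limma on TPM put at 0.18 with 6 rises and 7 falls. The saposin-like gene spp-25 fell by 3.29 ± 0.64, and irg-4, an immune response gene, rose by 3.39 ± 1.08 (log2, SE, adjusted p 0.00215 and 0.0319 in edgeR).

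Nuclear hormone receptor genes, of which worms have an expanded family, leaned downwards in the fit of all libraries. Of 225 tested 7 rose and 26 fell, with a median of -0.50. The share of falls was 11.6%, near the 8.89% of all genes, and the share of rises was below the 9.54% of all genes. On TPM the median was -0.12, with 10 rises and 6 falls. The median was -0.76 without eat-2 replicate 1 and -0.11 without replicate 2, so the size of the lean depended on the eat-2 library. nhr-176 went from 3.34 and 5.60 CPM to 0.881, 0.825 and 0.731 CPM (-2.46 ± 0.40, SE, adjusted p 0.000519 in edgeR), and nhr-195 fell by 3.00 ± 0.51 (log2, SE, adjusted p 0.000659 in edgeR). Both held in each fit without 1 library. nhr-155 had 0 and 1 counts in eat-2 and 41, 71 and 45 counts in the libraries labelled double mutant (adjusted p 0.00687 in edgeR).

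Genes of fatty acid oxidation split by member. Of 64 tested 12 rose (18.8%, against 9.54% of all genes) and 8 fell (12.5%, against 8.89%). The median was 0.31, and 0.64 without eat-2 replicate 1. acs-2, a mitochondrial acyl-CoA synthetase gene that fasting induces through NHR-49, was at 157 and 255 CPM in eat-2 and at 32.2, 24.7 and 27.3 CPM in the libraries labelled double mutant. The groups are well apart (-2.88 ± 0.67, SE, adjusted p 0.00756 in edgeR), and N2 EV stood above both at 706 to 1151 CPM. ech-9, an enoyl-CoA hydratase family gene, fell from 6.45 and 6.77 CPM to 0.881, 0.654 and 0.598 CPM (-3.21 ± 0.63, SE, adjusted p 0.00215 in edgeR). Of the rises, acdh-8 and acs-6 went from under 1 CPM in both eat-2 libraries to at least 9.24 CPM, by 5.87 ± 1.92 and 5.54 ± 1.41 (log2, SE, adjusted p 0.0362 and 0.0120 in edgeR).

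Lipid storage, transport and synthesis genes gave calls in both directions. Of 7 lysosomal lipase genes 2 fell (28.6%, against 8.89% of all genes) and 0 rose. lipl-4, whose overexpression prolongs life in C. elegans, was at 0.239 and 7.09 CPM in eat-2 and at 0.294, 0.199 and 0.133 CPM in the libraries labelled double mutant. Here the groups overlap, and the fitted change of -4.11 ± 0.80 (SE, adjusted p 0.00215 in edgeR) rests on replicate 2. lipl-2 fell by 2.29 ± 0.72 (log2, SE, adjusted p 0.0297 in edgeR). Without replicate 2, 0 lipases were called. Of 17 lipid-binding proteins 2 rose (11.8%, against 9.54% of all genes) and 3 fell (17.6%). The fatty acid and retinol binding gene far-3 was at 16.3 and 26.1 CPM in eat-2 and at 183, 244 and 207 CPM in the libraries labelled double mutant (3.32 ± 0.41, SE, adjusted p 2.7e-05 in edgeR), whereas lbp-4 and lbp-5 fell by 1.24 and 1.12 on the log2 scale. Of 16 desaturases and elongases 2 rose, elo-7 (5.71, from 0 and 5 counts) and elo-8 (4.51), and elo-5, which makes branched-chain fatty acids, fell (-1.49), all log2.

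Ribosomal and mitochondrial genes shifted by small amounts. Of 66 mitochondrial ribosomal proteins 13 fell (19.7%, against 8.89% of all genes) and 0 rose, with a median of -0.26. mrps-23 went from 40.8 and 72.4 CPM to 16.0, 20.3 and 20.3 CPM (-1.58 ± 0.28, SE, adjusted p 0.000995 in edgeR), and mrpl-36 fell by 1.57 ± 0.31 (log2, SE). Without eat-2 replicate 2, 0 of the 66 were called, without replicate 1, 22 fell and 2 rose, and on TPM 2 fell and 3 rose. Of 79 cytosolic ribosomal proteins 5 fell (6.33%, below the share of all genes), such as rpl-29 (-1.36) and rpl-39 (-0.87), and rpl-42 rose (3.87). Their median of -0.33 was 0.01 on TPM, and without eat-2 replicate 1 it was 0.17, with 7 rises and 7 falls. Of 50 respiratory chain subunits 5 fell (10%, near the share of all genes) and 1 rose (2%), whereas 7 rose and 1 fell with limma on TPM. Their median was 0.004, and 0.23 without eat-2 replicate 1. The riser was gas-1, a complex I subunit gene whose mutants are short-lived, at 58.4 and 38.4 CPM against 168, 157 and 155 CPM (1.72 ± 0.34, SE, adjusted p 0.00216 in edgeR). The fallers included the copper chaperone and assembly genes cox-17 (-1.11) and cox-19 (-1.29), both log2. Of 25 genes of ribosome biogenesis, rpac-19 fell (-1.36) and no other was called (median 0.26). Without eat-2 replicate 1, 9 of these rose and 2 fell (0.71), and with limma on TPM 4 rose and 1 fell.

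Autophagy and lysosomal genes, known outputs of MML-1 and MXL-2 in C. elegans through HLH-30, were called about as often as all genes. Of 27 autophagy genes 5 fell (18.5%, against 8.89% of all genes) and 0 rose, with a median of -0.32. atg-10 went from 4.22 and 7.56 CPM to 1.88, 2.05 and 1.66 CPM (-1.66 ± 0.47, SE, adjusted p 0.0196 in edgeR), and epg-9 fell by 1.05 ± 0.33 (log2, SE, adjusted p 0.0317 in edgeR). None of the 27 held in each fit without 1 library, and limma on TPM called 0 of them (median -0.03). With the sperm level as a covariate 3 rose and 1 fell. Of 50 genes of lysosomal acidification and proteolysis 2 rose (4%, against 9.54% of all genes) and 6 fell (12%). The aspartyl protease genes asp-13 (-2.48 ± 0.64) and asp-12 (-1.58 ± 0.53) fell and asp-8 rose (2.87 ± 0.87), log2 with SE.

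Calls were few in several further lists, and 1 eat-2 library or the sperm covariate changed their number. Of 34 insulin-like peptide genes 2 rose (5.88%, against 9.54% of all genes) and 4 fell (11.8%, against 8.89%). With the sperm covariate 2 rose and 9 fell. ins-22 went from 2.87 and 4.74 CPM to 0.382, 0.654 and 0.665 CPM (-2.74 ± 0.68, SE, adjusted p 0.0106 in edgeR), and ins-23, its neighbour on chromosome III, fell by 2.36 ± 0.75 (log2, SE, adjusted p 0.0324 in edgeR). ins-37 rose by 4.13 ± 0.78, with 20.1% of its exon length under exons of other genes. Of 105 neuropeptide genes edgeR called 0 and DESeq2 1 (median -0.38). With the sperm covariate 39 of them fell (median -1.46). The median was -1.01 without eat-2 replicate 1 and 0.73 without replicate 2, so its sign turned with the eat-2 library. The smallest p was in nlp-7, at -1.36 ± 0.50 (log2, SE, adjusted p 0.058 in edgeR). Of 33 proteasome subunits edgeR and DESeq2 called 0, and pbs-3 had the smallest p (-0.36 ± 0.16, log2, SE, adjusted p 0.108 in edgeR). Without eat-2 replicate 1, 8 subunits rose, and the median went from -0.04 to 0.84. The 4 drd genes gave 0 calls with either tool, with drd-5 at 1.29 ± 0.65 (log2, SE, adjusted p 0.172 in edgeR). Of 10 dod genes dod-24 fell (-2.21 ± 0.78, log2, SE, adjusted p 0.0488 in edgeR). Of 30 nicotinic receptor subunits acr-17 rose (1.01), and of 40 genes of central carbon metabolism pfk-1.2 (6.59) and idhg-1 (0.52) rose, log2. Without eat-2 replicate 1, 10 of the carbon metabolism genes rose and 1 fell. Of 73 glutamine-rich pharynx proteins 6 rose (8.22%) and 3 fell (4.11%), among them pqn-68 (-1.31). Both shares are below the 9.54% and 8.89% of all genes. With the sperm covariate 2 rose and 26 fell.

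The most stable calls were a small part of the whole. In 221 genes (1.27% of those tested) the call and its direction held in each of the 5 fits without 1 library, 68 higher and 153 lower. The share of falls among them is larger than among all calls. They include mxl-2, pha-4, fmo-2, mtl-1, mtl-2, clec-47, clec-150, cest-29 and dnj-13 among the falls, and col-176, cyp-35A3, cyp-35A1, far-3, fmo-3, ugt-13, grl-22, scrm-4 and nhr-15 among the rises. cest-29, annotated as a carboxylesterase pseudogene, went from 2.98 and 8.49 CPM to 0.0587, 0.171 and 0.0997 CPM (-5.65 ± 0.93, SE, adjusted p 0.00052 in edgeR). The wide falls of dct-8 (-4.39 ± 1.05) and fbxb-66 (-3.38 ± 1.06), log2 with SE, were not called in every such fit.

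**Figure D4:**
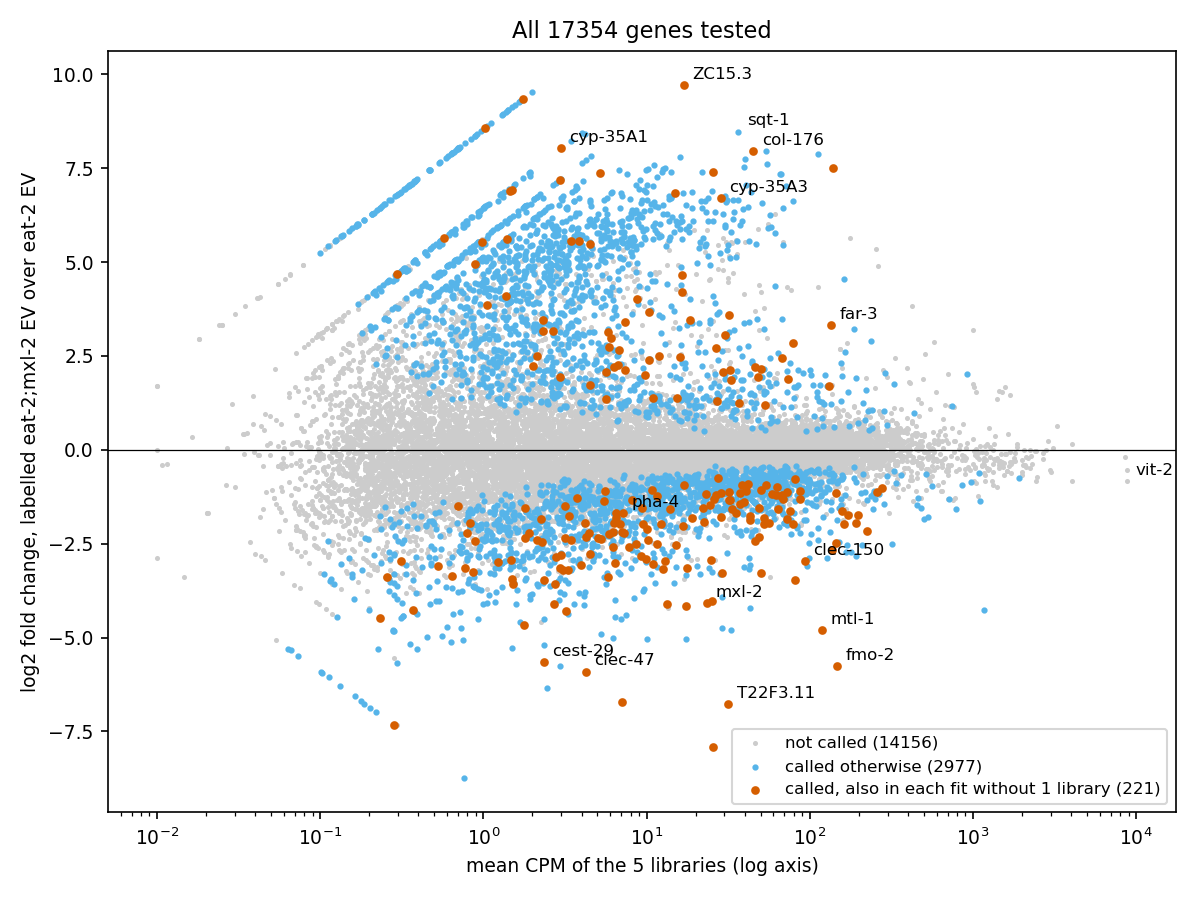
Log2 fold change of the libraries labelled double-mutant EV over eat-2 EV against mean CPM of the 5 libraries (log axis) for the 17354 genes tested. Blue and orange points are called genes, the 221 in orange also in each fit without 1 library. The diagonal lines of points are genes with 0 or few counts in eat-2, whose fitted fold change depends on the prior count.

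The same strain contrast was made on 2 other foods, daf-16 RNAi and pha-4 RNAi as labelled, which share no library with the EV comparison. On daf-16 RNAi 399 genes were called (2.3%), 308 higher (1.77%) and 91 lower (0.524%). On pha-4 RNAi 715 were called (4.12%), 198 higher (1.14%) and 517 lower (2.98%). Of the 1656 genes higher on EV, 144 were also higher on daf-16 RNAi (8.70% of the first list, 46.8% of the second) and 116 on pha-4 RNAi (7.005% and 58.6%), where 13 were called lower. Of the 1542 lower on EV, 41 were also lower on daf-16 RNAi (2.66% and 45.1%) and 118 on pha-4 RNAi (7.65% and 22.8%). The median log2 fold change of the 1656 genes was 4.34 on EV, 1.94 on daf-16 RNAi and -0.30 on pha-4 RNAi. These genes were chosen by their calls on EV, which raises the EV median relative to the other 2. The major sperm proteins had medians of 5.52, 3.08 and -0.45, and the col collagens 2.76, 0.50 and 0.16, with 0 genes of either list called higher on either RNAi food.

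On all 3 foods 89 genes were called higher and 22 lower, 42 and 13 of them in each EV fit without 1 library. The median log2 fold changes of the 89 were 2.33 on EV, 2.83 on daf-16 RNAi and 2.54 on pha-4 RNAi. The same genes had a median of 0.20 for mxl-2 against N2 on EV. They were chosen by their calls in the first 3 contrasts and not in the N2 one. The choice alone raises those 3 medians, so the set cannot show a difference between backgrounds. The P450 gene cyp-35A3 was among them, at 0.235 to 0.764 CPM in the 4 eat-2 libraries on the RNAi foods and at 21.3 to 57.7 CPM in the 6 labelled double mutant. nhr-15, a nuclear receptor gene, was at 1.83 and 1.39 CPM in eat-2 EV and at 10.2, 10.1 and 10.4 CPM with the double-mutant label (2.67 ± 0.33, SE, adjusted p 3.35e-05 in edgeR). Its change was 3.05 ± 0.34 on daf-16 RNAi and 2.73 ± 0.33 on pha-4 RNAi, and 0.01 ± 0.27 in mxl-2 against N2 (log2, SE). The scramblase gene scrm-4 rose from 4.74 and 3.72 CPM to 44.4, 53.8 and 54.2 CPM on EV (3.59 ± 0.54, SE, adjusted p 0.000214 in edgeR), by 4.40 on daf-16 RNAi and by 2.82 on pha-4 RNAi, on the log2 scale. In some genes of the set eat-2 also stood apart from N2 and mxl-2. Y65A5A.1 had 0 counts in eat-2 on all 3 foods, 141 to 168 in N2 EV and 42 to 170 in mxl-2 EV. F56A4.3 had 50 and 75 counts in eat-2 EV, and 0 in N2 EV, mxl-2 EV and the libraries labelled double-mutant EV. Both were chosen after their values were seen, and strain differences apart from tm1516 were not tested.

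The named genes lower on all 3 foods were, besides mxl-2, clec-47, cest-29, acs-2, best-1 and bath-24. acs-2 fell by 2.88 on EV, 3.24 on daf-16 RNAi and 6.08 on pha-4 RNAi (log2). best-1, a bestrophin channel gene, was at 14.05 and 44.2 CPM in eat-2 EV and at 4.73, 4.32 and 4.32 CPM in the libraries labelled double-mutant EV (-2.71 ± 0.70, SE, adjusted p 0.0130 in edgeR), and fell by 3.85 and 4.76 on the other foods. In 22 of the 89 risers and 2 of the 22 fallers another gene of the same set lay within 10 kb.

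Several of these neighbours had few counts in eat-2. They lie outside the naming rule and were chosen after their values were seen. ZC15.3 and ZC15.4, 145 bases apart on chromosome V, had 0 and 2 and then 5 and 2 counts in eat-2 EV, whereas the libraries labelled double-mutant EV held 946, 788 and 1027 counts of the first and up to 191 of the second. In N2 EV and mxl-2 EV their counts reached 7 at most. C38D9.2 and C38D9.13, 1466 bases apart on the same chromosome, had 49 and 25 and then 2 and 1 counts in eat-2 EV, and at least 6133 and 229 counts in the other group. On chromosome X the pairs R09H3.2 and R09H3.3 and F41G4.5 and F41G4.7 behaved alike: F41G4.7 had 7 and 9 counts in eat-2 EV against 1605, 1131 and 1463, and R09H3.3 8 and 5 counts against 937, 701 and 807. All 8 genes held in each fit without 1 library. pmk-3 (log2 fold change 1.87), which encodes a p38 kinase, and islo-1 (1.39), 127 bases apart on chromosome IV, rose together by less.

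Whether the strain contrast differed between EV and the mean of the 2 RNAi foods was tested directly, and 126 genes were called (0.726%), 53 with a higher (0.305%) and 73 with a lower value (0.421%) on EV. The largest named difference was in col-176, at 6.85 ± 1.16 log2 units (SE, adjusted p 0.0038 in edgeR): its log2 fold change was 7.96 on EV, 1.86 on daf-16 RNAi and 0.36 on pha-4 RNAi. far-3 differed by 4.97 ± 0.49 (adjusted p 4.58e-06 in edgeR), since it rose on EV and fell on pha-4 RNAi, by 3.65 on the log2 scale. The patched-related gene ptr-8 rose on EV (1.43), was not called on daf-16 RNAi (0.01) and fell on pha-4 RNAi (-1.05), a difference of 1.95 ± 0.33 (log2, SE, adjusted p 0.0038 in edgeR).

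The lectin gene clec-150 was at 230 and 164 CPM in eat-2 EV and at 21.6, 30.4 and 23.2 CPM in the libraries labelled double-mutant EV. The libraries labelled double-mutant daf-16 RNAi held 232 to 371 CPM and those labelled pha-4 RNAi 84.7 to 144 CPM. The EV libraries were thus the lowest. Its log2 fold change was -2.97 ± 0.29 on EV (SE, adjusted p 1.45e-06 in edgeR), 0.39 and -0.33 on the RNAi foods, and the difference was -3.004 ± 0.35 (SE, adjusted p 7.63e-05 in edgeR). tbh-1, the octopamine synthesis gene, fell on EV (-1.75 ± 0.32) and rose on pha-4 RNAi (2.27 ± 0.35), log2 with SE, with 18.2% of its exon length under other genes. ddo-3 fell by 1.63 on EV and rose by 1.32 on pha-4 RNAi (log2). The metallothionein mtl-1, the transferase ugt-18 and ech-9 also differed between foods, by -4.60, -4.76 and -5.06 log2 units (edgeR adjusted p 0.0199, 0.00266 and 0.00141). For mtl-1 the eat-2 libraries on daf-16 RNAi held 8.96 to 14.9 CPM, near the 8.56 to 11.1 CPM of the libraries labelled double-mutant EV.

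**Figure D5:**
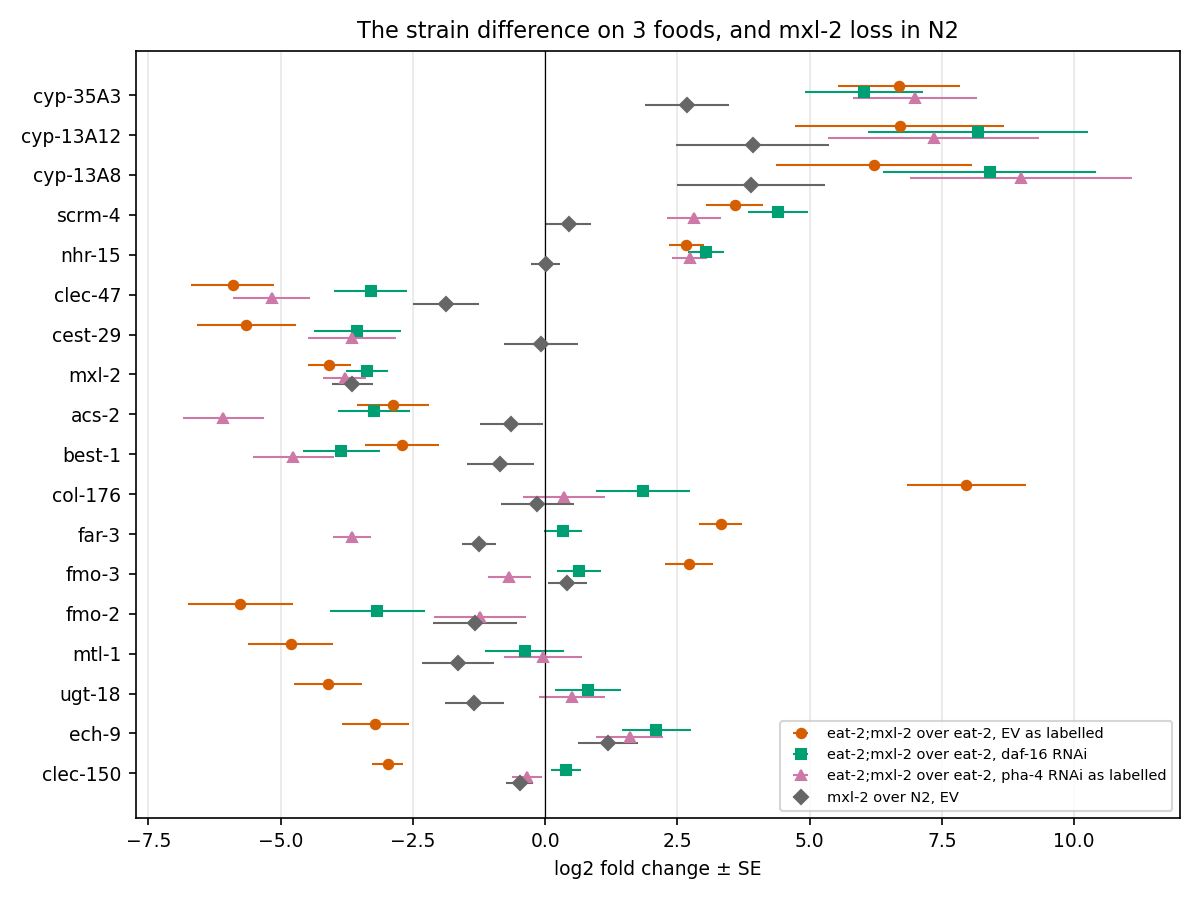
Log2 fold change ± SE of the strain contrast on EV, daf-16 RNAi and pha-4 RNAi as labelled, and of mxl-2 over N2 on EV, for genes that changed on all 3 foods (upper rows) or that differed from the other foods or from N2 (lower rows, with fmo-2). nhr-15 lies at 2.67, 3.05 and 2.73 on the 3 foods and at 0.01 in N2, while mtl-1 lies at -4.81 on EV and at -0.39 and -0.04 on the other foods.

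In the wild-type background the same allele gave 5 calls (0.0288%) on EV, 2 higher (0.0115%) and 3 lower (0.0173%). The mxl-2 EV libraries stood far apart from each other, with sqt-1 at 0.610 to 11.2 CPM and dpy-5 at 1.39 to 46.05 CPM, so a low count there does not show that the allele had no effect. Of these, mxl-2, F23F12.12, pho-8 and clec-71 were called in the same direction in the eat-2 background, with no library in common. F23F12.12 had 821 and 1947 counts in eat-2 EV and 59, 88 and 75 counts in the 3 double-mutant-labelled EV libraries. It fell by 4.16 ± 0.57 in eat-2 and by 4.95 ± 0.57 in N2 (log2, SE), and also on the other foods (-3.46 and -5.96). pho-8, an acid phosphatase gene, rose by 2.29 ± 0.46 here and 2.35 ± 0.40 in N2, and clec-71 by 2.68 ± 0.60 and 3.46 ± 0.60 (log2, SE). On daf-16 RNAi and pha-4 RNAi the changes were 0.50 and -0.25 in pho-8, and 1.74 and 1.05 in clec-71 (log2). F48C1.9, which fell by 4.87 in N2, was not called in eat-2 (0.93 ± 0.62, SE, adjusted p 0.322 in edgeR).

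The test of the difference between backgrounds called 221 genes (1.27%), 114 with a higher (0.657%) and 107 with a lower value (0.617%) in eat-2. sqt-1 differed by 8.64 log2 units (adjusted p 0.0450 in edgeR) and col-176 by 8.11 ± 1.25 (SE, adjusted p 0.00116 in edgeR), with log2 fold changes of -0.17 and -0.15 in N2. far-3 differed by 4.57 ± 0.51 (SE, adjusted p 2.61e-05 in edgeR) and ugt-13 by 4.60 ± 0.69 (SE, adjusted p 0.000997 in edgeR), both being lower on average in mxl-2 than in N2 (-1.25 and -1.13, not called). Negative differences were called in clec-150 (-2.49 ± 0.38), mtl-2 (-2.26 ± 0.43) and bath-24 (-2.92 ± 0.55), log2 with SE. bath-24 fell to a like extent on EV, daf-16 RNAi and pha-4 RNAi (-2.33, -2.31 and -2.56), and its neighbour btb-3, 532 bases away, fell by 1.91, 1.85 and 2.35 (log2). The test called 5 of the 144 col collagens and 3 of the 20 body-shape collagens positive, and 0 of the 31 major sperm protein genes.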

How the data were processed

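Polyadenylated RNA of 33 libraries in 12 groups was sequenced, and the 5 described here hold 26880437 to 29374355 counts. The deposited values are whole-number read counts per gene and TPM, transcript abundance scaled for length. The counts were made by the authors with featureCounts 1.4.6-p5 and the TPM by the authors with RSEM 1.2.23, as far as the tools named in the submitters' processing notes show. Those notes also name FastQC, Trimmomatic, STAR 2.4.2a and the build WBcel235. The strand setting of the counting is not given in the sources used here.

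Counts were fitted with edgeR 4.0.16 (R 4.3.3) in 1 quasi-likelihood model of all 33 libraries, with TMM scaling and its expression filter (17354 of 17907 genes tested) and Benjamini-Hochberg adjustment, called at an adjusted p under 0.05. CPM are TMM-scaled. Contrasts gave the strain comparison on each food, mxl-2 loss in N2 and the tests of differences. Alternatives were RLE factors, no filter, DESeq2 1.42.0, limma 3.58.1 on log2(TPM + 0.5), the compared groups alone, a sperm transcript covariate, the replicate number as a block, each library left out, and the libraries labelled pha-4 RNAi in place of EV. The fit was tested on simulated data.

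The members and gene lists were chosen with earlier results of these data known. Named genes are mxl-2, eat-2, pha-4, daf-16 and the Myc-family network, the 10 called genes with the widest gap between groups in each direction, up to 3 called members of each list, 5 genes in each direction that were called on all 3 foods, and 3 in each direction with the smallest p in each test of a difference. The gap rule and the foods rule need a mean of at least 5 CPM and a gene symbol. The pattern for symbols was widened to names such as cyp-35A3 after values were seen. The other cyp-35 genes, fmo-1, fmo-4, fmo-5, hsp-12.1, hsp-16.41, hil-1, sod-3, the genes called in N2 and the neighbouring pairs lie outside the rule and were chosen after their values were seen. P-values rest on a spread between populations estimated over all 12 groups, not on the compared groups alone, with 2 populations in eat-2 EV.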

Additional observations from a re-analysis of the deposited data

Results flagged for a closer look

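The strain effect was tested for a difference between foods and between backgrounds, and the named genes below passed one of these tests at an edgeR adjusted p under 0.05. Of the named genes, 15 passed the first and 25 the second. Groups of 2 and 3 libraries are too small to single out a library.

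Between EV and the mean of the 2 RNAi foods, 126 genes differed. The difference, as the log2 fold change on EV minus that mean, was positive in col-176 (6.85), far-3 (4.97), grl-22 (3.19), ugt-13 (2.97), fmo-3 (2.74) and ptr-8 (1.95). It was negative in the metallothionein genes mtl-1 (-4.60) and mtl-2 (-1.86), the metabolic genes ugt-18 (-4.76) and ech-9 (-5.06), and the protease gene asp-12 (-3.53). It was negative too in nhr-176 (-2.20), clec-150 (-3.0), tbh-1 (-3.18) and ddo-3 (-2.43). pha-4 was low in the libraries labelled double-mutant EV and not in those labelled pha-4 RNAi. On daf-16 RNAi it averaged 5.84 CPM with the double-mutant label and 15.1 CPM in eat-2. The part of a label exchange in these differences was not tested.

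Between the eat-2 and N2 backgrounds on EV, 221 genes differed. The effect in eat-2 minus that in N2 was positive in the cuticle genes sqt-1 (8.64), col-176 (8.11) and grl-22 (3.95), and in the enzyme genes cyp-35A1 (6.53), ugt-13 (4.60) and fmo-3 (2.30). The receptor genes nhr-155 (7.40) and nhr-15 (2.65) were positive as well. The same held for far-3 (4.57), mab-3 (4.1), ins-37 (3.64), scrm-4 (3.14) and ptr-8 (1.75). cyp-35A1 and nhr-155 had 0 and 1 counts in eat-2, so their values depend on the prior count.

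Negative differences between backgrounds were found in cest-29 (-5.57), clec-47 (-4.04), clec-150 (-2.49), dod-24 (-4.61) and spp-25 (-3.74). The lipid genes ech-9 (-4.40) and elo-5 (-2.57) were negative too. So were asp-13 (-3.64), mtl-2 (-2.26), nhr-176 (-2.34), bath-24 (-2.92) and dnj-13 (-0.96).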

How the results depend on the processing

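The 3198 EV calls became 2078 with the compared groups alone and 1362 with the libraries labelled pha-4 RNAi, and 323 to 3744 with 1 library left out. Those extremes are without eat-2 replicate 2 and without replicate 1, and without one of the other libraries 1865 to 2094 were called. The 399 calls on daf-16 RNAi became 929 with DESeq2, 0 with the compared groups alone (1524 at an unadjusted p under 0.05), 2088 with the sperm covariate and 185 to 1817 with 1 library left out. The 715 calls on pha-4 RNAi became 1308, 2737 and 1441 under the same settings, and 94 to 665 with 1 library left out. The 126 calls of the difference between foods became 1174 with DESeq2, 233 with limma on TPM, 1756 with the compared groups alone, 303 with the sperm covariate and 27 to 718 with 1 library left out. The 221 calls of the difference between backgrounds became 1085 with DESeq2 and 71 to 201 with 1 library left out. The causes were not tested.

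With the replicate number as a block (replicate block), the EV calls numbered 2416, 2405 of them shared with the fit without it, the difference between foods 71 and that between backgrounds 122. Deviations of same-numbered libraries correlated at 0.277 and 0.403, with 2 pairs, and the labels do not tie a number to a day or batch. The share of higher calls on EV was 51.8%, and 81.9% with limma on TPM, 73.8% with the compared groups alone, 36.05% with the sperm covariate and 28.1% with the libraries labelled pha-4 RNAi. For the differences it rose from 42.1% to 80.7% (foods) and from 51.6% to 87.8% (backgrounds) with limma on TPM.

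Of the named genes, 8 changed sign under some setting, none of them called with all libraries. With the sperm covariate eat-2 was at -1.27, perm-4 at 0.0604 and vit-2 at 0.69, and with limma on TPM mdl-1 was at 0.21 and hlh-30 at 0.027. The eat-2 transcript had 1 to 3 counts per library, at the floor, so its sign carries no weight. With 1 library left out the log2 fold changes ranged from -0.43 to 0.49 in eat-2, -0.35 to 1.03 in daf-16, -0.60 to 0.46 in mdl-1, -0.27 to 1.09 in mml-1, -0.61 to 1.03 in sbp-1, -0.72 to 0.24 in hlh-30, -1.85 to 0.22 in perm-4 and -1.69 to 0.87 in vit-2. Without eat-2 replicate 2, 77 named genes lost their call, without replicate 1, 38, and with the sperm covariate, 42. A fit with 1 eat-2 library left assumes that it varies like the other groups.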
